A study of Mus musculus with 21 samples.

Results

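The serpin protease inhibitor genes were described in left ventricle tissue from control (Notch3+/+) and Notch3-/- mice. Every gene of the deposited counts whose mouse symbol is Serpin followed by a clade letter, a number and at most 1 further letter was taken, which gave 63 of 46517 Ensembl genes. All mice were C57BL/6J and 10 to 14 months old, and the sex of each mouse is not given. The Notch3-/- mice carry lacZ inserted into the Notch3 locus in every cell of the body, so the loss was not limited to the heart. There were 4 control and 3 Notch3-/- mice, each with 3 technical libraries whose counts were summed. Total counts were 3091461, 4638786, 4208205 and 3046326 in the controls and 3828763, 5167869 and 5086740 in Notch3-/- mice. The labels of control mice 1 and 2 start with X and those of the other 5 mice with k, letters whose meaning is not given. Values are given throughout in the order of control mice 1, 2, 3 and 4 and then of Notch3-/- mice 1, 2 and 3.

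Serpins share a fold in which an exposed reactive centre loop acts as bait for a protease, and cleavage of the loop traps the enzyme in a covalent complex. Members of clades A, C and D and part of clade F are made mainly by hepatocytes and secreted into the blood, where they restrain neutrophil elastase, thrombin, plasmin and other proteases or, like Serpina6 and Serpina7, carry hormones. Clade B members lack a signal peptide and guard the inside of cells, and genes such as Serpine2, Serping1, Serpinf1 and Serpinh1 are expressed in the vessel wall, by fibroblasts and by other tissue cells. The genes were therefore grouped as 11 liver genes of clades A and C, 2 liver genes of clades D and F, 15 other clade A genes, 5 vascular and matrix genes, 27 clade B genes and 3 others.

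The labels were first checked against Notch3 itself, a receptor of vascular smooth muscle cells and pericytes. Notch3 had 174, 200, 245 and 185 counts in the controls and 22, 36 and 25 in Notch3-/- mice. Every Notch3-/- mouse was below every control mouse, as the labels state. In the edgeR quasi-likelihood test with Benjamini-Hochberg adjustment over 14324 genes, the log2 fold change was -3.16 with an adjusted p of 0.00173. Notch3 was the single gene called at an adjusted p under 0.05 and a fold of at least 1.5, which is 0.00698% of the genes tested.

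Marker genes of heart and liver cells were examined next. All 8 cardiomyocyte markers, led by Ttn, were found in every mouse and none had an unadjusted p under 0.05 in edgeR, with summed levels of 20567 to 28444 CPM (counts divided by the TMM-scaled library size, per 1e+06) in the controls and 28408, 18566 and 20167 CPM in Notch3-/- mice. The 20 hepatocyte markers, led by albumin (Alb), summed to 58.6, 177, 19.5 and 32.1 CPM in the controls and to 7279, 13264 and 169 CPM in Notch3-/- mice. Notch3-/- mice 1 and 2 thus stood far above all other mice, and in this sum Notch3-/- mouse 3 lay just below control mouse 2. Of the 19 markers tested, 10 had every Notch3-/- mouse above every control, against 4.57% of all tested genes, so for these Notch3-/- mouse 3 was above control mouse 2. In control mice 1, 3 and 4, 3, 5 and 6 of these markers had 0 counts, and no marker was at 0 in control mouse 2 or in the Notch3-/- mice. All 19 hepatocyte markers that could be tested had an unadjusted p under 0.05 with a higher level in Notch3-/- hearts, and edgeR called none of them. Only 4 of the 19 reached the filter level in at least 3 controls and the others passed it through Notch3-/- hearts. Neither this count nor that of the 10 markers without overlap is therefore comparable with that of all tested genes. With every gene of at least 1 count kept, in a count added after the values were seen, all 20 were higher at that p, against 6.15% of all genes. DESeq2 called 19 of the 20, against 3.29% of all genes called higher. Because Notch3-/- mouse 3 stood apart from the others of its genotype, fits without it are also given for the tested liver serpins and for several other serpins. No marker or partner list is given without it, and some partner lists are also given among the mice with k labels. A fit without it keeps the 2 Notch3-/- mice with high hepatocyte markers, so the adjusted p of liver genes in that fit depend on a choice made by level.

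The 5 Serpina1 genes encode alpha-1 antitrypsin, the main inhibitor of neutrophil elastase in plasma, and are close copies on chromosome 12. They differ most in the reactive centre loop, which sets the protease each one binds. The coding stretch of 99 bases that starts at the hinge of the loop is shown for each of them. It carries part of the differences by which reads of the copies can be told apart, and others lie outside it. Serpina1b and Serpina1e, for example, differ at 12 bases of this stretch and at 46 of 1242 aligned coding bases. The sequences come from GENCODE vM21 transcripts and run 5′ to 3′, and capitals mark the 19 bases that vary among the 5 genes.
Serpina1a: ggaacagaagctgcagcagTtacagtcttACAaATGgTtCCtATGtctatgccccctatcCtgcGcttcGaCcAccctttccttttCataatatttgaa
Serpina1b: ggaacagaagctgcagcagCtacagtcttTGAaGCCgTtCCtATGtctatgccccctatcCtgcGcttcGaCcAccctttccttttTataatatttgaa
Serpina1c: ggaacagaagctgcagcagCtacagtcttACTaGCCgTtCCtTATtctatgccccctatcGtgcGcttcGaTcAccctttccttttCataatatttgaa
Serpina1d: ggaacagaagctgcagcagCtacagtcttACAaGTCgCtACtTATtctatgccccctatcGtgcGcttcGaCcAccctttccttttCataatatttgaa
Serpina1e: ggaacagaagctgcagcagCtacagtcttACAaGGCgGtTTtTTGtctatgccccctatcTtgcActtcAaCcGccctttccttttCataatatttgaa
In this stretch Serpina1e differs from each of the other copies at 10 to 12 bases, and Serpina1c and Serpina1d differ from each other at 5. Over the 1242 aligned coding bases identity was 96.3% to 98.5%. Of all 51-base windows, the length of the reads, 42.7% were found in no other gene's transcripts for Serpina1a, 71.2% for Serpina1b, 20.98% for Serpina1c, 49.6% for Serpina1d and 66.3% for Serpina1e. How the authors' counting treated reads that match several copies is not given in the sources used here, so the split of counts among these genes is uncertain, more so for Serpina1c than for Serpina1b or Serpina1e.

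Serpina1b had 5, 18, 7 and 2 counts in the controls and 951, 1830 and 19 in Notch3-/- mice. Serpina1d had 3, 12, 2 and 1 counts in the controls and 775, 1593 and 12 in Notch3-/- mice. Serpina1a had 2, 3, 0 and 1 counts against 266, 677 and 5. All 3 genes were high in Notch3-/- mice 1 and 2 and near the controls in Notch3-/- mouse 3. Serpina1c had 0, 5, 1 and 1 counts in the controls and 422, 1138 and 9 in Notch3-/- mice, in the same order of mice. It shares 429 of its 1361 exon bases with B430119L08Rik on the other strand, which had 0, 2, 0 and 0 counts against 200, 551 and 7, and reads of such a pair cannot be told apart without strand. Serpina1e had 0, 17, 11 and 2 counts in the controls and 18, 1504 and 14 in Notch3-/- mice. For Serpina1e a single mouse, Notch3-/- mouse 2, was high, and Notch3-/- mouse 1 was close to control mouse 2.

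Only 3 of these copies passed the filter on low counts with all 7 mice, and a gene near 0 in the controls could pass it only through its level in Notch3-/- hearts. The log2 fold change, Notch3-/- over control, was 6.68 ± 1.21 (SE) for Serpina1b, 7.25 ± 1.33 for Serpina1d and 5.80 ± 1.57 for Serpina1e. Their adjusted p in edgeR with Benjamini-Hochberg adjustment were 0.118, 0.118 and 0.215, so none was called. Without Notch3-/- mouse 3 the same test gave 7.24, 7.81 and 6.35 with adjusted p of 7.39e-06, 9.16e-06 and 0.0107. Over all alternatives the adjusted p of Serpina1b reached 0.734, in the mice with k labels, and that of Serpina1e reached 0.910, without Notch3-/- mouse 2, where its log2 fold change fell to 0.99. In that fit Serpina1b and Serpina1d were at 5.95 and 6.45. In bulk tissue, more cells of a type and more RNA per cell cannot be told apart.

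**Figure D1:**
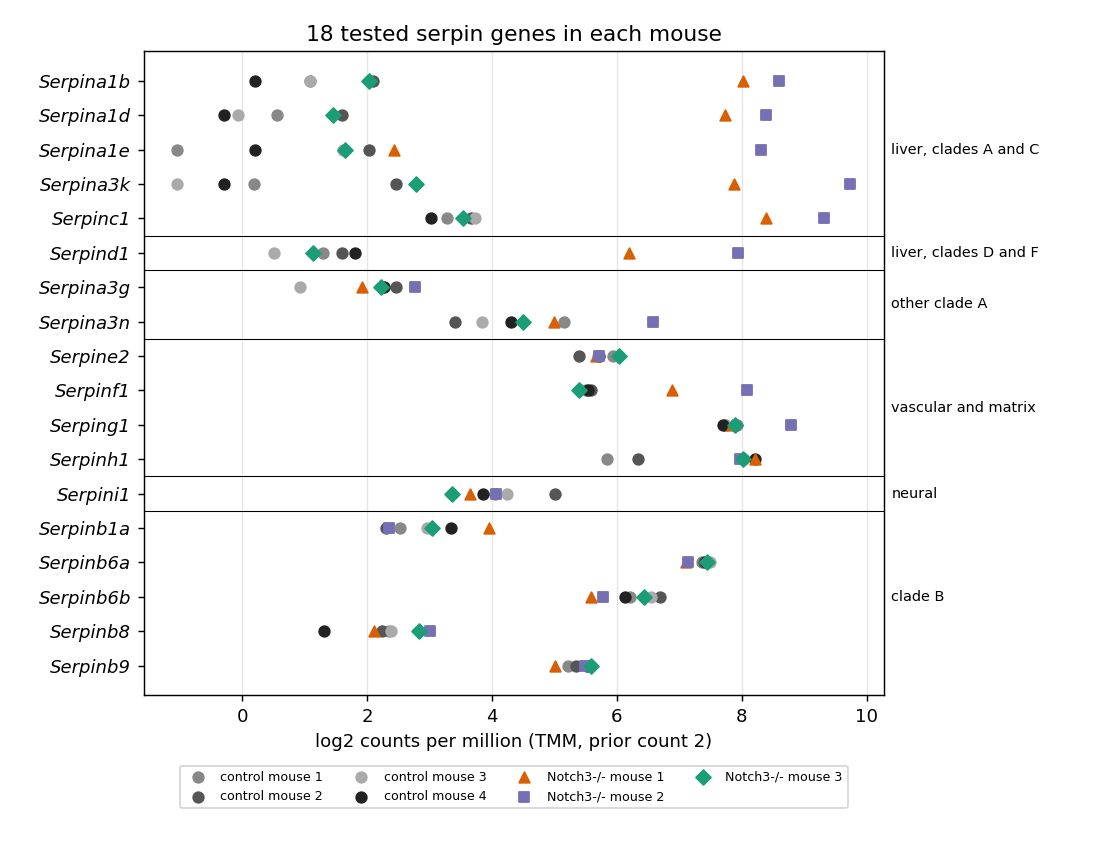
Level of 18 of the 19 tested serpin genes in each mouse, as log2 CPM on the horizontal axis, with 1 point per mouse and the genes ordered by group. Liver genes of clades A, C and D sit far to the right in Notch3-/- mouse 2 and, except Serpina1e, in Notch3-/- mouse 1, while Notch3-/- mouse 3 lies among or next to the controls; most vascular and clade B points overlap.

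The other liver genes of clade A were high in the same mice. Serpina3k, a plasma serpin that inhibits tissue kallikreins, had 2, 24, 0 and 1 counts in the controls and 853, 4052 and 34 in Notch3-/- mice. Its 3 Notch3-/- values were all above the controls, the lowest of them at 6.43 CPM against 5.06 CPM in control mouse 2. It was the single tested serpin without overlap of the groups, 1 of 19, while 4.57% of all tested genes had every Notch3-/- mouse above every control mouse. Serpina3k passed the filter through Notch3-/- hearts, so these shares are not comparable. Of 29 members with counts that did not pass the filter, 5 were also without overlap in CPM, namely Serpina1a, Serpina1c, Serpina3m, Serpina6 and Serpina10, with 2 to 9 counts in Notch3-/- mouse 3, against 1.76% of all 14466 such genes. All 5 were among the 14 of these members with at least 10 counts, against 3.98% of all untested genes with as many. These 5 had 0 to 5 counts in each control and reached 10 counts through Notch3-/- hearts. Their share is therefore not comparable with that of all untested genes. The log2 fold change of Serpina3k was 7.70 ± 1.46 (SE), with an adjusted p of 0.118 in edgeR after Benjamini-Hochberg adjustment. Its neighbour Serpina3m, which shares 60 exon bases with it, had 2, 2, 0 and 0 counts against 280, 838 and 4.

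Serpina6, the plasma carrier of glucocorticoids, had 1, 1, 1 and 0 counts in the controls and 300, 673 and 2 in Notch3-/- mice. Serpina10, a cofactor-dependent inhibitor of coagulation factor X, had 1 count in each control and 74, 504 and 2 in Notch3-/- mice. Serpina7, a carrier of thyroid hormone on chromosome X, had 0, 2, 0 and 0 counts against 16, 432 and 0. Notch3-/- mouse 3 was thus at 0 to 4 counts for Serpina3m, Serpina6, Serpina10 and Serpina7, and Serpina7 joined Serpina1e in being far higher in Notch3-/- mouse 2 than in mouse 1. These 4 genes did not pass the filter and have no fold change here.

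Serpinc1 encodes antithrombin, the main plasma inhibitor of thrombin and factor X. It had 28, 58, 54 and 23 counts in the controls and 1223, 3025 and 59 in Notch3-/- mice. On the CPM scale the controls were at 7.68 to 12.7, with a mean of 10.5 ± 2.41 (SD, n = 4), and Notch3-/- mouse 3 was inside that range at 11.2. Its log2 fold change was 4.95 ± 0.95 (SE), with an adjusted p of 0.118 in edgeR after Benjamini-Hochberg adjustment. Serpinc1 made up 40.6% to 71.9% of all counts of the 11 liver genes of clades A and C in the controls, and 23.6%, 18.6% and 36.9% in Notch3-/- mice. The share of Notch3-/- mouse 3 (95% Wilson interval 29.8% to 44.6%) was next to that of control mouse 2, at 40.6%. Of its 8546 exon bases 2942 are also exon of Zbtb37 on the other strand, and 66.5% of its 51-base windows were its own. Zbtb37 had 114, 130, 177 and 103 counts in the controls and 132, 238 and 121 in Notch3-/- mice. Reads of the shared bases cannot be told apart without strand, and their part in the Serpinc1 counts was not tested.

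Serpind1, heparin cofactor II, is a liver gene of clade D and inhibits thrombin. It had 6, 12, 4 and 9 counts in the controls and 266, 1161 and 9 in Notch3-/- mice. Serpinf2, alpha-2 antiplasmin, the main inhibitor of plasmin, had 3, 11, 0 and 0 counts against 694, 2489 and 9. Both were high in Notch3-/- mice 1 and 2, and Notch3-/- mouse 3 lay within the range of the controls in counts. The log2 fold change of Serpind1 was 5.66 ± 1.20 (SE) with an adjusted p of 0.135 in edgeR after Benjamini-Hochberg adjustment, and Serpinf2 did not pass the filter. Without Notch3-/- mouse 3, edgeR with Benjamini-Hochberg adjustment gave 8.25 for Serpina3k, 5.50 for Serpinc1 and 6.23 for Serpind1, in log2, with adjusted p of 8.40e-05, 8.43e-06 and 3.90e-05. Without Notch3-/- mouse 2 the log2 fold changes of Serpina3k, Serpinc1 and Serpind1 were 6.07, 4.01 and 4.11, and without control mouse 2 that of Serpina3k was 10.1. In the mice with k labels the adjusted p of each of these genes was 0.734, the highest over all alternatives.

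Across the family, 33 members had at least 10 counts over the 7 mice, 15 had 1 to 9 and 15 had none. With all 7 mice 19 members passed the filter and edgeR called none of them. At an unadjusted p under 0.05, 8 of the 19 were higher in Notch3-/- hearts and 0 were lower, while over all genes tested 7.34% were higher and 3.05% were lower. Of the 19, however, 5 were below the filter level in the controls and passed it through Notch3-/- hearts, and all 5 were among the 8. Of the 14 that reached that level in at least 3 controls, 3 were higher, against 6.58% of all such genes. With every gene of at least 1 count kept, 18 of 48 were higher, a planned count, and 1 was lower, against 6.15% and 2.26% of all genes. The count of lower genes and both shares were added after the values were seen. The 8 were Serpina1b, Serpina1d, Serpina1e, Serpina3k, Serpinc1, Serpind1, Serpinf1 and Serpina3n. No tested serpin had all Notch3-/- mice below all controls, against 3.96% of all tested genes. Without Notch3-/- mouse 3, 28 members were tested and 16 were called, all higher, where 6.02% of all genes were called higher, with liver members near 0 in the controls again past the filter through Notch3-/- hearts. Leaving out any other mouse gave 0 serpin calls in edgeR. DESeq2 with all 7 mice gave an adjusted p for 30 members and called 12, all higher, where 3.29% of all genes were called higher. When every gene with at least 1 count was kept, edgeR called 16 of 48 members with all 7 mice, against 2.18% of all genes called higher. These 16 were the same genes as those called without Notch3-/- mouse 3, and the 12 of DESeq2 were among them. They comprised all 11 liver genes of clades A and C, both of clades D and F, Serpina11, Serpina12 and Serpinf1. Calls among the serpins thus depended on the test, on the filter and on Notch3-/- mouse 3. Within the 5 mice with k labels edgeR called none of 29 tested members, with 12 higher at an unadjusted p under 0.05, against 5.01% of all genes in that fit. Of the 29, however, 12 reached the filter level in both k controls and the others passed it through Notch3-/- hearts. Of these 12, 1 was higher and 0 were lower, against 2.57% and 1.52% of all such genes, a count added after the values were seen.

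Medians were taken for the groups of the family. The median log2 fold change was 6.68 over the 5 tested liver genes of clades A and C, 0.47 over the 5 vascular and matrix genes and -0.037 over the 5 tested clade B genes, beside -0.0028 over all 14324 genes tested. Of the 5 liver genes 4 had controls near 0 and passed the filter through their level in Notch3-/- hearts, so this median is not comparable with those of the other groups. When every gene with at least 1 count was kept, edgeR gave medians of 7.35 over all 11 liver genes, 0.45 over the vascular and matrix genes and -0.19 over clade B. The vascular and matrix median fell from 0.47 to 0.17 without Notch3-/- mouse 2 and to 0.10 in the mice with k labels. With all 7 mice it was the value of Serping1, which was above every control in Notch3-/- mouse 2 only. In each mouse the median distance from the control mean was then taken, in log2. The liver genes stood at 6.90, 7.60 and 0.94 in Notch3-/- mice, and control mouse 2 at 1.14. The vascular and matrix genes stood at 0.072, 0.87 and 0.13 in Notch3-/- mice, and the clade B genes at -0.31, -0.27 and 0.17. The difference between the groups of genes was not tested.

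**Figure D2:**
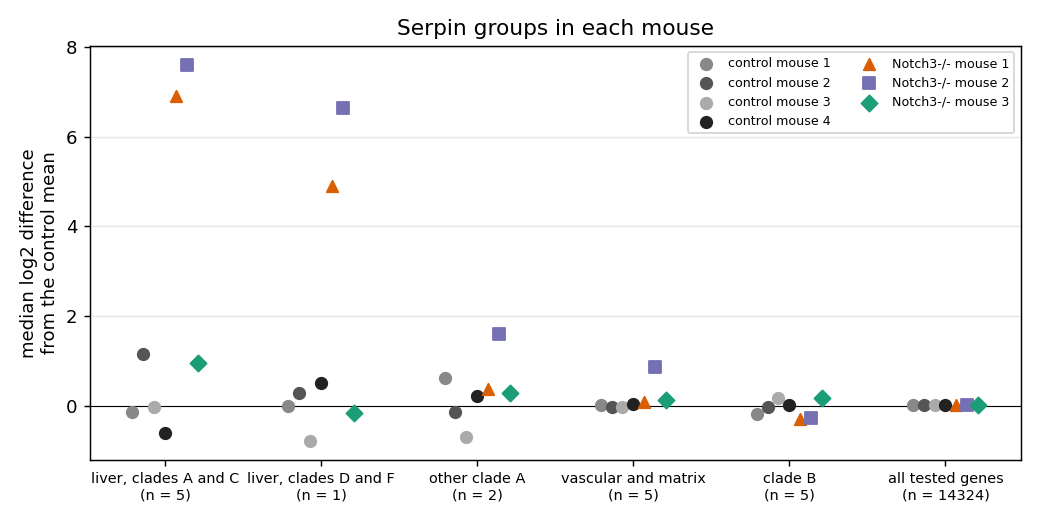
Median distance in log2 from the control mean for each group of serpin genes, with 1 point per mouse and the number of tested genes (n) under each group. Notch3-/- mice 1 and 2 reach 6.90 and 7.60 for liver genes of clades A and C, whereas Notch3-/- mouse 3, at 0.94, is below control mouse 2, at 1.14; clade B and all tested genes stay near 0.

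The sums of the liver serpins were set beside those of the hepatocyte markers. The 11 liver genes of clades A and C summed to 14.5, 30.1, 18.1 and 10.7 CPM in the controls and to 1415, 3421 and 30.3 CPM in Notch3-/- mice. Notch3-/- mice 1 and 2 were high in both sums, and Notch3-/- mouse 3 and control mouse 2 lay next to each other in both. The other controls did not keep 1 order, since control mouse 3 had the lowest sum of hepatocyte markers, 19.5 CPM, and the second highest sum of serpins among the controls, 18.1 CPM. The 10 clade A genes made up 12.9% of the counts of these genes and the hepatocyte markers together in Notch3-/- mouse 1 (95% Wilson interval 12.6% to 13.3%) and 17.4% in mouse 2 (17.1% to 17.6%). In Notch3-/- mouse 3 the share was 10.1% (8.41% to 12.2%), and in control mouse 2 it was 9.21% (7.51% to 11.2%). Control mice 1, 3 and 4 were at 8.25% (5.14% to 12.98%), 21.7% (14.9% to 30.5%) and 8.57% (4.57% to 15.5%), so control mouse 3 had the highest share of all mice and lay beyond the interval of control mouse 2. Intervals of Notch3-/- mice 1 and 2 did not overlap, and those of Notch3-/- mouse 3 and control mouse 2 did. All intervals treat reads as independent counts. Reads amplified by PCR are not independent molecules, so the intervals can be too narrow even for counting error. Of 8 markers of Kupffer and liver sinusoid cells, led by Fcna, 5 were tested, and 4 had an unadjusted p under 0.05 with a higher level in Notch3-/- hearts, against 7.34% of all tested genes, although 2 of the 5 passed the filter without reaching its level in 3 controls. None of them was called by edgeR and 3 of the 8 were called higher by DESeq2, against 3.29% of all genes. The 8 markers summed to 15.5 to 23.4 CPM in the controls and 103, 143 and 29.7 CPM in Notch3-/- mice. They did not all follow this order. Timd4, 1 of the 4, was at 3.01, 3.79 and 5.48 CPM in Notch3-/- mice, highest in mouse 3. The other tested markers were highest in Notch3-/- mouse 2. The part of liver cells or liver RNA in the serpin levels was not tested.

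**Figure D3:**
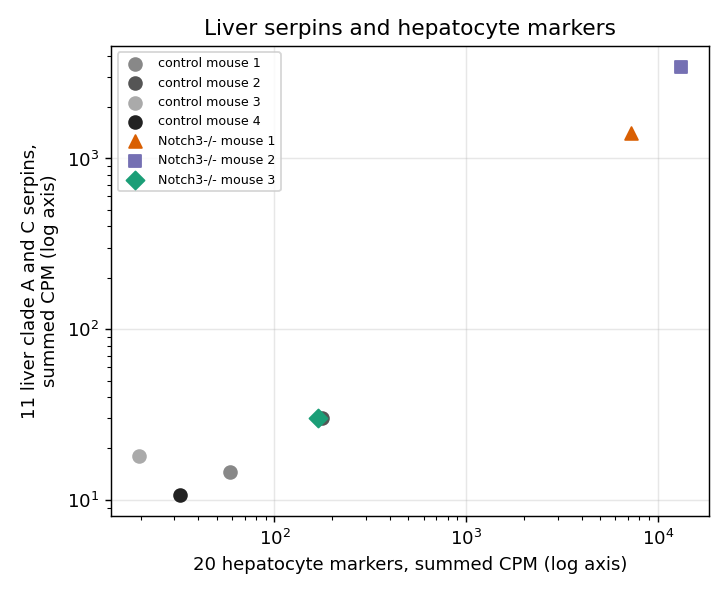
Summed CPM of the 11 liver serpin genes of clades A and C against that of the 20 hepatocyte markers, both on log axes, with 1 point per mouse. Notch3-/- mice 1 and 2 lie at the upper right, at 1415 and 3421 CPM of serpins, and Notch3-/- mouse 3 lies beside control mouse 2, at 30.3 and 30.1 CPM.

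The technical libraries of a mouse gave similar levels of the liver serpins in Notch3-/- mice 1 and 2 and less so in mouse 3. As CPM on the unscaled library totals, the 11 genes summed to 1536, 1264 and 1330.4 in the 3 libraries of Notch3-/- mouse 1 and to 3009.6, 3236 and 3221 in those of mouse 2. In Notch3-/- mouse 3 they summed to 18.0, 25.1 and 42.0, and its hepatocyte markers to 102, 88.4 and 265. Library 3 of Notch3-/- mouse 3 thus held most of the hepatocyte counts of that mouse, 644 of 896, and was also its deepest library, with 2427783 counts.

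The make-up of the Serpina1 counts differed between Notch3-/- mice 1 and 2. Serpina1e gave 18 of 2432 Serpina1 counts in Notch3-/- mouse 1, a share of 0.740% (95% Wilson interval 0.469% to 1.17%), and 1504 of 6742 in mouse 2, a share of 22.3% (21.3% to 23.3%). In Notch3-/- mouse 3 the share was 23.7% of 59 counts (14.7% to 36.0%), in control mouse 2 it was 30.9% of 55 counts (20.3% to 44.0%), and in control mouse 3 it was 52.4% of 21 counts (32.4% to 71.7%). Control mice 1 and 4 held 10 and 7 Serpina1 counts, too few for a share. Notch3-/- mouse 1 was therefore below the others with at least 21 counts, and its interval overlapped none of theirs. The 3 libraries of Notch3-/- mouse 1 gave 1.07%, 0.806% and 0.289%, and those of mouse 2 gave 22.0%, 21.9% and 23.0%. Libraries of 1 mouse do not show the spread between mice. Between Notch3-/- mice 1 and 2 the shares of Serpina1b were 39.1% (37.2% to 41.1%) and 27.1% (26.1% to 28.2%), and those of Serpina1d were 31.9% (30.04% to 33.7%) and 23.6% (22.6% to 24.7%). Shares of Serpina1a were 10.9% (9.76% to 12.2%) and 10.0% (9.35% to 10.8%), and those of Serpina1c were 17.4% (15.9% to 18.9%) and 16.9% (16.004% to 17.8%). All shares are of a sum that holds Serpina1e, so a change of Serpina1e moves the other 4.

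**Figure D4:**
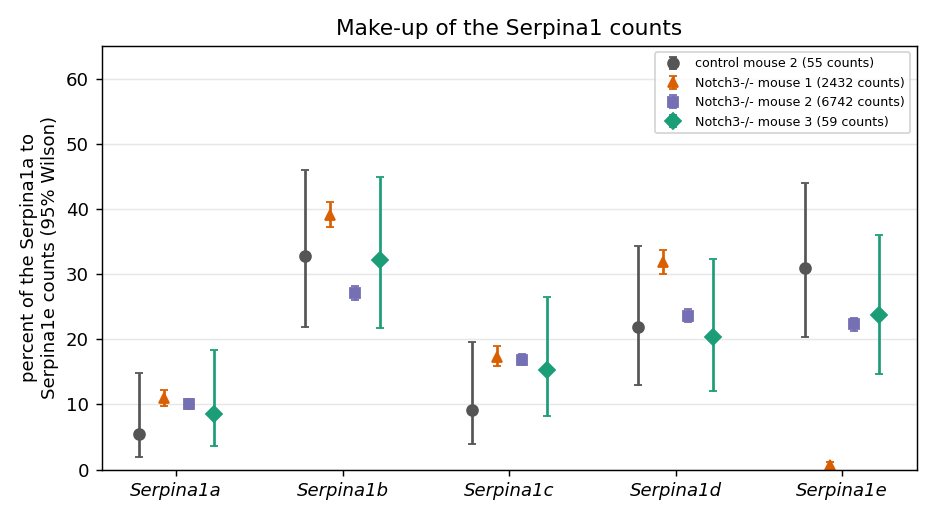
Share of each Serpina1 copy among the counts of all 5, in percent with 95% Wilson intervals, for control mouse 2 and the 3 Notch3-/- mice. Serpina1e is at 0.740% in Notch3-/- mouse 1 and at 22.3% to 30.9% in the other mice shown; the intervals of Notch3-/- mice 1 and 2 overlap for Serpina1a and Serpina1c and do not for Serpina1b and Serpina1d.

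Several liver genes, chosen after their values were seen, are given beside Serpina1e. Mup20, Elovl3 and Cyp7b1 are known to be higher in male than in female mouse liver, and Cyp2b9 to be higher in female liver. Mup20 had 0, 38, 1 and 5 counts in the controls and 45, 1571 and 34 in Notch3-/- mice. Elovl3 had 0, 3, 0 and 0 against 2, 742 and 3, Cyp7b1 had 3, 1, 7 and 5 against 20, 347 and 1, and Cyp2b9 had 2, 0, 0 and 0 against 359, 8 and 0. The hepatocyte markers had 838 counts in control mouse 2 and 26637 in Notch3-/- mouse 1. In these mice Mup20 had 38 and 45 counts and Cyp2b9 had 0 and 359. Xist, the RNA of the inactive X chromosome, had 25, 1128, 2 and 3 counts in the controls and 1729, 5 and 3 in Notch3-/- mice. The Y-linked gene Ddx3y had 358, 4, 552 and 288 counts against 1, 636 and 705. Control mouse 2 and Notch3-/- mouse 1 were thus the mice with high Xist and next to no Ddx3y. Serpina1e gave 30.9% of 55 Serpina1 counts in control mouse 2 and 0.740% of 2432 in Notch3-/- mouse 1. The sex of the mice is not in the labels, and its part in the level of Serpina1e was not tested.

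Promoters of the Serpina1 genes were examined because the copies moved together apart from Serpina1e. RefSeq (GRCm38.p6) gave promoter windows, from 250 bases before to 50 after a start site, for 53 of the 63 members. The windows were searched on both strands for GTTAAT, part of the site of hepatocyte nuclear factor 1, and for TTGCNNAA, the site of the C/EBP factors. GTTAAT was found in 6 of 7 liver genes of clades A and C with a window, all 5 Serpina1 copies among them, in 0 of 2 liver genes of clades D and F, in 1 of 13 other clade A genes, in 3 of 25 clade B genes, in 0 of 3 vascular and matrix genes, in 1 of the 3 others (Serpini2) and in 7.10% of all 32851 promoter windows. TTGCNNAA was found in 6, 0, 5, 3, 0 and 0 genes of these groups, in the same order, and in 10.8% of all windows. The windows of Serpina1b (chr12:103738140-103738439, minus strand) and Serpina1e (chr12:103956848-103957147, minus strand) are shown 5′ to 3′ as the copies with the least similar levels in Notch3-/- mouse 1, with both motifs in capitals.
Serpina1b promoter: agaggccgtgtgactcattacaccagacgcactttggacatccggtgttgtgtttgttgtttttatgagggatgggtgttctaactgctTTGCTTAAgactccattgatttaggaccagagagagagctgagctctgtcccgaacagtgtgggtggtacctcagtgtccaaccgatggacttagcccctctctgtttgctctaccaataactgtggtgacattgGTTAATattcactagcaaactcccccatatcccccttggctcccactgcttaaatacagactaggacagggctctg
Serpina1e promoter: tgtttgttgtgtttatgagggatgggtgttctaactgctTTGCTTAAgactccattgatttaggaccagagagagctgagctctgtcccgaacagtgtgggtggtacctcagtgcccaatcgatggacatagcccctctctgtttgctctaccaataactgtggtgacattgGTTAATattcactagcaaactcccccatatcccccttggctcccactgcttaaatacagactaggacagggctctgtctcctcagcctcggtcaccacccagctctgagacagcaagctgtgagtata
Each of these windows held 1 match of either motif, so the letters searched did not separate these 2 copies. Serpina1c was the single Serpina1 copy without a match of TTGCNNAA. The copies resemble each other in sequence, and their matches are therefore not independent.

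The remaining clade A genes are neighbours of these in a cluster of 24 genes on chromosome 12 (chr12:103614786-104414329, GRCm38). Serpina11 had 0 counts in every control and 37, 199 and 0 in Notch3-/- mice, and Serpina12, the adipokine vaspin, had 3, 1, 1 and 0 against 18, 102 and 1. Both were above every control in Notch3-/- mice 1 and 2 only. In Notch3-/- mouse 1 Serpina12 was at 18 counts, as was Serpina1e, the liver gene that was not high in that mouse. Serpina3n, an acute phase inhibitor of granzyme B and cathepsin G made by many tissues, had 107, 48, 59 and 58 counts in the controls and 115, 451 and 117 in Notch3-/- mice. On the CPM scale the controls were at 10.1 to 35.2, and Notch3-/- mice at 31.4, 94.9 and 22.1. The groups overlapped, and Notch3-/- mouse 2 alone was above every control. The log2 fold change of Serpina3n was 1.35 ± 0.53 (SE) with an adjusted p of 0.423 in edgeR after Benjamini-Hochberg adjustment, and 0.46 with an adjusted p of 0.920 when Notch3-/- mouse 2 was left out. It was 1.71 with an adjusted p of 0.0880 without Notch3-/- mouse 3.

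Serpina3g, an intracellular member of the Serpina3 cluster in blood cells, had 13, 24, 6 and 13 counts in the controls and 12, 30 and 22 in Notch3-/- mice. The groups overlapped, and the log2 fold change of 0.30 ± 0.45 (SE) was smaller than its error. Serpina3c had 2, 2, 2 and 5 counts against 0, 14 and 14. Serpina3f had 4, 7, 1 and 1 counts against 7, 15 and 0, Serpina3i had 7, 0, 1 and 7 against 0, 17 and 0, and Serpina9 had 0, 9, 0 and 0 against 4, 3 and 1. These low counts followed no order shared with the liver genes beyond Notch3-/- mouse 2 being high for Serpina3c, Serpina3f and Serpina3i. Of the 15 other clade A genes 2 had 1 to 9 counts and 5 had none.

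Among the vascular and matrix genes, Serping1 encodes the C1 inhibitor, which restrains complement and plasma kallikrein. It had the highest mean control level per length of the tested serpins, at 93.7 ± 7.04 CPM per kilobase of exon (SD, n = 4), followed by Serpinh1 at 71.1 ± 50.1, which overlapped it within its spread. In control mice 3 and 4 Serpinh1 was the higher of these genes, at 107 and 121 against 90.9 and 88.6 CPM per kilobase for Serping1. Serping1 had 735, 1005, 898 and 617 counts in the controls and 836, 2085 and 1258 in Notch3-/- mice. On the CPM scale the controls lay between 206 and 242, Notch3-/- mice 1 and 3 within that range at 228 and 238, and Notch3-/- mouse 2 above it at 439. The fitted change, in log2, was 0.47 ± 0.21 (SE), with an adjusted p of 0.490 in edgeR after Benjamini-Hochberg adjustment, and 0.099 with an adjusted p of 0.931 when Notch3-/- mouse 2 was left out. That mouse was also the highest in hepatocyte markers, whose part in the level of Serping1 was not tested.

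Serpinf1 encodes pigment epithelium-derived factor, a secreted inhibitor of vessel growth that is also made in liver. It had 136, 226, 178 and 137 counts in the controls and 432, 1280 and 220 in Notch3-/- mice. The controls were close together, at 45.0 ± 2.40 CPM (SD, n = 4), whereas Notch3-/- mice were at 118, 269 and 41.6 CPM. Notch3-/- mice 1 and 2 were above every control and Notch3-/- mouse 3 was below every control, so the groups overlapped. The log2 fold change was 1.67 ± 0.47 (SE) with an adjusted p of 0.237, and without Notch3-/- mouse 3 it was 2.10 ± 0.27 with an adjusted p of 0.000729, both in edgeR with Benjamini-Hochberg adjustment. Without Notch3-/- mouse 2 the same test gave 0.81 with an adjusted p of 0.689. The highest adjusted p over all alternatives was 0.734, in the mice with k labels. The high mice were also those high in hepatocyte markers, whose part in the level of Serpinf1 was not tested.

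Serpine2, protease nexin 1, an inhibitor of thrombin and plasminogen activators on cell surfaces, had 184, 196, 219 and 155 counts in the controls and 184, 246 and 343 in Notch3-/- mice. The groups overlapped. Its log2 fold change was 0.12 ± 0.17 (SE), smaller than its error, with an adjusted p of 0.852 in edgeR after Benjamini-Hochberg adjustment.

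Serpinh1 encodes Hsp47, a chaperone of the endoplasmic reticulum that binds newly made collagen and inhibits no protease. Control mice 1 and 2 had 172 and 383 counts, then 1113 and 884 in control mice 3 and 4, and Notch3-/- mice had 1076, 1196 and 1375. On the CPM scale control mice 1 and 2 were at 56.6 and 80.7, and the other 5 mice lay between 252 and 295. The low mice were the controls whose labels start with X, and all other mice, of both genotypes, have labels that start with k. With all mice the log2 fold change was 0.63 ± 0.49 (SE), and among the 5 mice with k labels it was -0.058 ± 0.14, with adjusted p of 0.696 and 0.951 in edgeR with Benjamini-Hochberg adjustment. With each mouse left out in turn it ran from 0.34 to 1.0105. Between the k and X controls, a comparison added after the counts were seen, the log2 difference was 2.01 ± 0.20 with an adjusted p of 0.00315. Serpinh1 was the single one of 14 tested serpins called there, while 42 of 13901 genes, 0.302%, were called. On unscaled library totals, the technical libraries of control mice 1 and 2 gave 35.0 to 100.3 CPM of Serpinh1, and those of the other mice gave 183 to 355, without overlap. With no Notch3-/- mouse labelled X, the genotype can be compared within the k labels only.

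**Figure D5:**
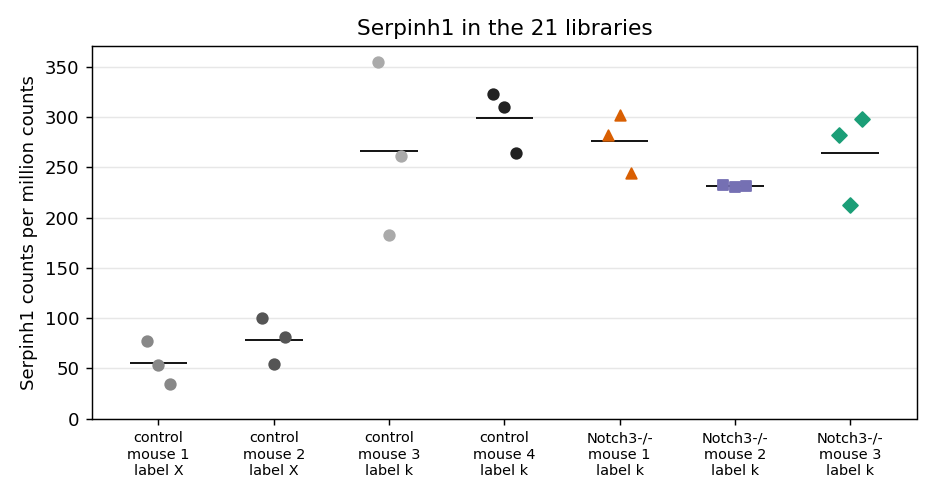
Serpinh1 in CPM on library totals in all 21 libraries, with 3 points and their mean (line) for each mouse and the first letter of the mouse label under the axis. The 6 libraries of the X-labelled controls lie between 35.0 and 100.3, and the 15 libraries of k-labelled mice lie between 183 and 355.

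Heat shock genes, chosen after the values of Serpinh1 were seen, are given beside it because Serpinh1 belongs to the heat shock response. Hspa1a had 8, 19, 244 and 19 counts in the controls and 24, 40 and 14 in Notch3-/- mice. Dnajb1 had 103, 293, 612 and 175 counts against 240, 364 and 221. Control mouse 3 was highest for both, and neither gene separated the X from the k labels as Serpinh1 did.

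Collagens and the enzymes that process them, the clients and partners of Serpinh1, were all tested. With all mice edgeR called none of 12 genes and DESeq2 called 2, both higher, against 3.29% of all genes. At an unadjusted p under 0.05, 6 were higher and 0 were lower, against 7.34% and 3.05% of all tested genes, and the median log2 fold change was 0.48. Among the mice with k labels, a fit of this list added after its counts were seen, edgeR called none. There 3 were higher at an unadjusted p under 0.05 and 0 were lower, against 5.01% and 1.37% of all tested genes, with a median of 0.45. The 3 were Col1a1, Col3a1 and Col6a1, with log2 fold changes of 0.72, 0.74 and 0.58. Col4a1, Col4a2 and P4ha1 were lower in the X than in the k controls at an unadjusted p under 0.05, Fkbp10 was higher in them, and edgeR called none. For Col4a1, Col4a2 and P4ha1 the log2 fold changes between genotypes were 0.52, 0.24 and 0.48 with all mice and 0.28, 0.011 and 0.15 among the k labels. P4hb, Col4a2 and Col4a1 had the highest control levels, and Col3a1, Col1a1 and Col6a1 had the smallest unadjusted p. Col3a1 had 897, 978, 1053 and 851 counts in the controls and 1319, 2154 and 2783 in Notch3-/- mice, with a log2 fold change of 0.79 and an adjusted p of 0.126 in edgeR after Benjamini-Hochberg adjustment. All 3 Notch3-/- mice were above all controls in CPM for Col3a1, Col1a1, Col6a1 and Col4a1, against 4.57% of all tested genes. Notch3-/- mouse 3 was highest for Col3a1, unlike for the liver serpins.

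None of the 5 tested clade B genes had an unadjusted p under 0.05 in edgeR, and neither edgeR nor DESeq2 called any. Serpinb6a, which guards cells against cathepsin G, had 496, 795, 766 and 511 counts in the controls and 503, 669 and 921 in Notch3-/- mice. On the CPM scale the controls were at 170 ± 7.18 (SD, n = 4) and Notch3-/- mice at 137, 141 and 174. The groups overlapped through Notch3-/- mouse 3, and the log2 fold change was -0.18 ± 0.13 (SE) with an adjusted p of 0.668 in edgeR after Benjamini-Hochberg adjustment, and -0.30 with an adjusted p of 0.290 when Notch3-/- mouse 3 was left out. Its exons overlap those of Nqo2, Ripk1 and 1110046J04Rik on the other strand by 762, 241 and 584 of 5409 bases, and the part of these genes in its counts was not tested.

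Serpinb6b, a related granzyme inhibitor, had 222, 488, 397 and 208 counts in the controls and 174, 258 and 454 in Notch3-/- mice. The controls were at 69.5 to 103 CPM, Notch3-/- mice 1 and 2 below them at 47.5 and 54.3 CPM, and Notch3-/- mouse 3 within their range at 85.9 CPM. Its log2 fold change was -0.44 ± 0.23 (SE) with an adjusted p of 0.543, and without Notch3-/- mouse 3 it was -0.74 ± 0.21 with an adjusted p of 0.0738, both in edgeR with Benjamini-Hochberg adjustment. Neither passed the threshold. It was -0.27 without Notch3-/- mouse 1, and over all alternatives the adjusted p of Serpinb6b ran from 0.0738 to 0.905.

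Serpinb9, the inhibitor of granzyme B in cytotoxic cells and their bystanders, had 112, 191, 201 and 136 counts against 116, 212 and 252, and its log2 fold change of -0.037 ± 0.18 (SE) was smaller than its error. Serpinb1a, an inhibitor of neutrophil elastase, had 16, 21, 31 and 29 counts against 55, 22 and 41. Serpinb8, an inhibitor of furin, had 14, 20, 20 and 6 counts against 14, 36 and 35, and Serpinb9b had 2, 1, 1 and 4 against 2, 0 and 1. The groups overlapped for all of these genes. Serpinb1a and Serpinb8 had log2 fold changes of 0.45 ± 0.43 (SE) and 0.62 ± 0.39, with adjusted p of 0.765 and 0.606 in edgeR after Benjamini-Hochberg adjustment. Of the 27 clade B genes, 6 had at least 10 counts, 11 had 1 to 9 and 10 had none. They lie in clusters on chromosome 13 (chr13:32842092-34002794, 15 genes) and chromosome 1 (chr1:106861173-107610484, 12 genes). The 6 white cell markers, led by Lyz2, are given because leukocytes express many clade B genes. None of the 4 tested had an unadjusted p under 0.05, and the 6 summed to 190 to 254 CPM in the controls and to 252, 216 and 247 CPM in Notch3-/- mice.

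Serpini1, neuroserpin, an inhibitor of tissue plasminogen activator, had 49, 151, 78 and 42 counts in the controls and 44, 77 and 52 in Notch3-/- mice. The controls were at 14.03 to 31.8 CPM and Notch3-/- mice at 12.02, 16.2 and 9.83 CPM, with overlap in Notch3-/- mouse 2. The fitted change, in log2, was -0.67 ± 0.32 (SE) with an adjusted p of 0.502 in edgeR after Benjamini-Hochberg adjustment. With each mouse left out in turn it ran from -0.90 to -0.36, the latter without control mouse 2, and it was -0.36 in the mice with k labels and -1.16 in library 3 alone. Serpini2 and Serpine3 had 1 to 9 counts each.

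The proteases that serpins restrain were listed by where they are made. Of 9 liver-made proteases in the counts, 2 were tested, both higher at an unadjusted p under 0.05 and neither called by edgeR. F2 passed the filter through Notch3-/- hearts only, and with every gene of at least 1 count kept, all 9 were higher at that p, against 6.15% of all genes. DESeq2 called 8 of the 9, all higher, against 3.29% of all genes. The 9 genes summed to 5.18 to 14.1 CPM in the controls and 954, 2528 and 11.7 CPM in Notch3-/- mice, so Notch3-/- mice 1 and 2 were high and Notch3-/- mouse 3 lay within the range of the controls. Prothrombin (F2), the target precursor of Serpinc1 and Serpind1, had 1, 20, 0 and 0 counts against 1203, 3413 and 16. Masp2 had 11, 20, 21 and 12 counts against 136, 703 and 23, and F10 had 5, 8, 1 and 7 against 404, 1108 and 3. Inhibitors and target enzymes of the liver were thus high in the same mice.

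Of 11 proteases listed as made in tissues, all were tested and none was called by edgeR or by DESeq2. At an unadjusted p under 0.05, 4 were higher and 0 were lower, against 7.34% and 3.05% of all tested genes. Among the mice with k labels, counted after the values were seen, 0 of the 11 were higher and 0 were lower at that p. There 5.01% and 1.37% of all tested genes were. Ctsb, Ctsl and Htra1 had the highest control levels, and their log2 fold changes were -0.0076, 0.15 and -0.013. Masp1, C1s1 and Ctss had the smallest unadjusted p. C1s1, the target of the C1 inhibitor, had 138, 277, 214 and 114 counts in the controls and 250, 1133 and 261 in Notch3-/- mice, so Notch3-/- mouse 2 was high, as for Serping1. Masp1 had 8, 19, 36 and 15 counts against 53, 434 and 14, and Ctss had 59, 119, 117 and 66 against 84, 185 and 218. C1s1 and Masp1 were highest in Notch3-/- mouse 2, as were the hepatocyte markers. The part of liver cells or liver RNA in the levels of this list was not tested. Of 9 leukocyte proteases 1 was tested, Tpsb2, with 10, 3, 10 and 7 counts against 12, 1 and 17, and the next by control level, Cma1 and Cpa3, had 0 to 17 counts in each mouse.

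Cofactors and receptors of serpins were tested for 9 of 10 genes, of which 3 were higher at an unadjusted p under 0.05 and 0 were lower, against 7.34% and 3.05% of all tested genes. None was called by edgeR and 2 were called by DESeq2, both higher, against 3.29% of all genes. Hspg2, Lrp1 and Thbd had the highest control levels. Lrp1, which clears serpin and protease complexes, had 789, 902, 846 and 637 counts in the controls and 1146, 2160 and 966 in Notch3-/- mice. Vtn, vitronectin, an adhesive protein of plasma and matrix, had 174, 261, 228 and 209 counts against 1079, 3314 and 287, and its log2 fold change was 2.57 with an adjusted p of 0.168 in edgeR after Benjamini-Hochberg adjustment. Sdc1, a heparan sulfate proteoglycan, had 46, 131, 68 and 46 counts against 369, 1538 and 121, and Sdc4 had 201, 279, 308 and 212 against 502, 1539 and 270. For these last 3 genes Notch3-/- mice 1 and 2 were again highest.

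Protease inhibitors outside the serpin family were listed as well. Of 14 genes 9 were tested, 3 were higher at an unadjusted p under 0.05 and 0 were lower, where 7.34% and 3.05% of all tested genes were. Of the 3, Itih4 passed the filter through Notch3-/- hearts only. None was called by edgeR, and DESeq2 called 4 of the 14, all higher, where it called 3.29% of all genes higher. Itih4 and Pzp, plasma inhibitors of the liver, had 3, 26, 6 and 10 counts against 1399, 4218 and 25, and 8, 58, 8 and 16 against 1337, 6660 and 79. Timp1, a tissue inhibitor of metalloproteases, had 12, 12, 12 and 13 counts in the controls and 29, 37 and 27 in Notch3-/- mice, and all 3 Notch3-/- mice were above all controls in CPM, as they were for Pzp, 2 of the 9 tested genes, against 4.57% of all tested genes. The change of Timp1, in log2, was 1.04 with an adjusted p of 0.323 in edgeR after Benjamini-Hochberg adjustment. Among the mice with k labels, counted after the values were seen, 4 of 12 tested inhibitors of this list were higher at an unadjusted p under 0.05. Over all genes tested there 5.01% were. Of the 7 that reached the filter level in both k controls 0 were, against 2.57% of all such genes. Cst3, Timp3 and Tfpi, the most abundant in control hearts, had log2 fold changes of -0.22, -0.21 and 0.060.

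Markers of other heart cells were set beside these results. Of 5 vascular smooth muscle markers, led by Smtn, 4 were tested and 2 were lower at an unadjusted p under 0.05 (3.05% of all tested genes), edgeR called none and DESeq2 called 1 lower (0.144% of all genes), with sums of 507 to 708 CPM in the controls and 647, 385 and 490 CPM in Notch3-/- mice. The 5 endothelial markers, led by Kdr, had no unadjusted p under 0.05, neither tool called any, and they summed to 551 to 858 CPM against 803, 844 and 822 CPM. Of the 6 fibroblast markers, led by Dcn, 3 were higher and 1 was lower at that p (7.34% and 3.05% of all tested genes), edgeR called none and DESeq2 called 2, both higher (3.29% of all genes). They summed to 1176 to 1403 CPM against 1320, 1409 and 1702 CPM, and 2 of them had every Notch3-/- mouse above every control and 1 had every one below (4.57% and 3.96% of all tested genes). Of the 4 adipocyte markers none was tested. Cidec had 1, 2, 0 and 6 counts against 9, 90 and 0, Lep had 0, 0, 0 and 11 against 0 in each, Adipoq had 0, 3, 0 and 7 against 2, 1 and 0, and Plin1 had 0 or 1 in every mouse. None of these sums set Notch3-/- mice 1 and 2 apart from Notch3-/- mouse 3 and the controls as the hepatocyte markers did.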

How the data were processed

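The authors deposited counts, integers for each gene and library that were not normalized, from single reads of 51 bases. The submitters' processing notes name mm10 and CASAVA; the aligner, the counting tool, its annotation and its use of strand are not given in the sources used here. From the deposited counts, 92 ERCC lines with 34 counts in all were left out and 46517 Ensembl genes kept, of which 46005 had a symbol in GENCODE vM21. Members, groups and lists were chosen with earlier results of these data known. Named were the members past the filter except 1 that is not reported here, other members with at least 10 counts, and in each partner list the 3 genes with the highest control CPM and the 3 with the smallest unadjusted p.

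Technical libraries were summed, so the mouse was the unit. edgeR 4.0.16 in R 4.3.3 was used with filterByExpr, TMM factors, the quasi-likelihood F-test on genotype and Benjamini-Hochberg adjustment over all genes tested. Calls needed an adjusted p under 0.05 and a fold of at least 1.5. DESeq2 1.42.0 was run without shrinkage of folds, and limma 3.58.1 on the 21 libraries. Log2 CPM used a prior count of 2. The fits were tested on simulated counts in which genes of higher counts were changed alike in every Notch3-/- mouse. Changed genes near 0 in the controls, or with 1 Notch3-/- mouse apart, were not simulated. The simulation therefore does not cover the pattern of the liver serpins. The low totals, 3046326 to 5167869 counts a mouse, limit genes of few counts.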

Additional observations from a re-analysis of the deposited data

Results flagged for a closer look

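Among the 4 control mice, 1 mouse lay far from the other 3 for 3 of the 19 tested serpins, where chance marks about 1 in 20 groups. For Serpina3g control mouse 3 was low, with a gap to the next mouse of 0.859 of the whole range in log2 CPM. For Serpinb8 control mouse 4 was low, with a gap of 0.865 of the range. For Serping1 control mouse 1 was high, with a gap of 0.8294 of the range, just past the limit. Serpina3g and Serpinb8 rest on 6 to 24 counts in each control, and no reason was tested for any of the 3.

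Serpina4-ps1, a pseudogene outside the rule for symbols, had 0 counts in every control and 0, 151 and 2 counts in Notch3-/- mice 1 to 3. It was above the controls in Notch3-/- mouse 2 and at 0 in Notch3-/- mouse 1.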

How the results depend on the processing

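Over the 16 alternative fits, 231 of 264 log2 fold changes of 18 tested serpins kept their direction and their side of the threshold, 23 passed it and 10 changed sign. RLE factors and TMM factors computed without the serpin and hepatocyte genes changed no call, and neither did leaving out the fold threshold.

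The cause of the following shifts was not tested, except that they come with fewer mice, fewer counts or more genes tested by construction. DESeq2 called 597 genes and 12 serpins, with 16 serpins higher at an unadjusted p under 0.05; it gave no p for Serpina1e. With every gene of at least 1 count edgeR called 639 genes and 16 serpins, with 18 serpins at that p. With each mouse left out in turn the calls ranged from 1 to 936 over all genes and from 0 to 16 among the serpins, and the serpins at that p from 6 to 18. The highest values came without Notch3-/- mouse 3. For the vascular and matrix serpins the median ranged from 0.17, without Notch3-/- mouse 2, to 0.61, in log2, and for clade B from -0.16 to 0.0083. For the liver serpins of clades A and C, over the genes each fit tested, it ranged from 5.95, without Notch3-/- mouse 2, to 7.96, without mouse 3. That median was 8.69 with k-labelled mice only, 5.06 in limma-voom on the 21 libraries and 4.59 in library 2 alone. With k-labelled mice only, edgeR called 0 genes, with 12 of 29 serpins higher at an unadjusted p under 0.05, most of them past the filter through Notch3-/- hearts (of 12 at its level in both k controls, 1 was higher), and the vascular and matrix median was 0.10. Library 1, 2 or 3 of every mouse alone gave 48, 39 and 77 calls and 1, 1 and 2 serpins called (Serpinc1 in each, and Serpina3k in library 3), with 4, 3 and 4 serpins at that p; in library 1 the clade B median was -0.39.

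With limma-voom on the 21 libraries, the technical number as a replicate block and the mouse as a random effect, 31 genes and 0 serpins were called, with 7 serpins higher at an unadjusted p under 0.05. Mice share only a technical number: deviations of same-numbered libraries from their mouse correlated between genotypes at -0.058, -0.023 and -0.045.

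Signs changed for the following log2 fold changes. With each mouse left out in turn Serpina3g ranged from -0.0057, without control mouse 3, to 0.49, and was at -0.0033 without Notch3-/- mouse 2. Serpinb9 ranged from -0.16 to 0.12, without Notch3-/- mouse 1, and was at 0.0083 without control mouse 3. Without Notch3-/- mouse 1 Serpinb1a, at 0.45 with all mice, was at -0.091, of a range up to 0.77. Serpine2 ranged from -0.011, without Notch3-/- mouse 3, to 0.21. With k-labelled mice only Serpinh1, at 0.63 with all mice, was at -0.058. Serpinb6a was at 0.067 in library 1 alone, Serpine2 at -0.039 in library 2 alone and Serpinb9 at 0.14 in library 3 alone. The cause was not tested. No other call or sign of these 18 serpins changed, apart from those that passed the threshold as above.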
